A study of Hordeum vulgare with 10 samples.

Results

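Respiratory burst oxidase homologs (RBOHs) are the plant NADPH oxidases, and their transcripts were measured here in barley roots treated with fungal lipids. Transcripts were taken by the wording of the deposited description, "respiratory burst oxidase" or "NADPH oxidase", together with the locus 4HG0414140, and 16 transcripts of 15 loci matched out of 37962 transcripts in all. The members were then selected on their level, a mean of at least 1 TPM (the length-corrected share of a library, scaled to the same total in each) over the 10 libraries, which left 10 transcripts of 9 loci among the 18330 transcripts at that level. All 10 carried the oxidase wording in their description, including both transcripts of 4HG0414140, so the locus clause added no transcript. Identifiers are given without the prefix HORVU.MOREX.r3., and the study names 4HG0409670.1 *Hv*RBOHI3 and 4HG0414140.2 *Hv*RBOHB1.

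RBOHs sit in the plasma membrane and pass electrons from cytosolic NADPH to oxygen on the outer side, which gives superoxide in the apoplast that is then turned into hydrogen peroxide. Their cytosolic N-terminus carries calcium-binding EF-hands and phosphorylation sites, so the enzymes are switched on after translation by calcium and by kinases once a microbial molecule has been perceived. In roots of *A. thaliana*, members of the family are also known for root hair growth and for lignification of the endodermal barrier. The RNA level therefore describes the stock of message for these enzymes and not their activity.

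The series holds wild-type (WT) roots of *H. vulgare* cv Golden Promise from seedlings of 7 days, cut into pieces that leave out the tips and the part next to the seed, kept in buffer overnight and harvested 2 h post treatment (hpt). There were 3 solvent control libraries, 3 libraries treated with 250 nM ergosterol, the main sterol of many fungi, and 4 treated with a lipid extract of the root endophyte *Serendipita indica* (*S. indica* lipids) at 1 : 160. The methods of the study describe a further replicate of the solvent control and of ergosterol, which was not analysed here. All 10 libraries, controls included, received methanol at 1 : 40 and were made of wounded, excised tissue without shoots. The root pieces of a pair of wells were pooled for each replicate, so the spread given below is the spread between pooled wells. As a check of the tissue, 14 transcripts described as nicotianamine synthase, an enzyme of iron acquisition in grass roots, together reached 83.8 to 156 TPM per library, with 2 of the 14 at 1 TPM or more, and 11 described as the small subunit of rubisco, a leaf enzyme, reached 3.08 to 7.71 TPM. The other root marker searched, the high-affinity nitrate transporter, was low at 1.2 to 5.23 TPM per library over 2 transcripts, no higher than the leaf marker. No description held the wording searched for the Casparian strip or for chlorophyll a-b binding proteins, so those markers gave no value.

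*Hv*RBOHI3 was the most abundant member and the only member that passed an adjusted *p* of 0.05 in either comparison with the solvent control. Its level in the solvent control libraries was 41.4, 56.7 and 46.5 TPM (48.2 ± 7.80, SD, n = 3), against 80.8, 74.8 and 81.5 TPM upon ergosterol (79.0 ± 3.69, n = 3) and 59.9, 68.9, 66.8 and 78.1 TPM upon *S. indica* lipids (68.4 ± 7.48, n = 4). Each of the 7 treated libraries lay above the highest solvent control library, while the range of the ergosterol libraries overlapped with that of the *S. indica* lipid libraries. In these bulk samples, more cells that express a gene and more RNA per cell cannot be told apart.

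The transcript of *Hv*RBOHI3 rose upon ergosterol by 0.71 on the log2(TPM + 1) scale (SE 0.126, 95% interval 0.433 to 0.991), a 1.64-fold change with an adjusted *p* of 0.0112 (limma, Benjamini-Hochberg over all 18330 transcripts). Upon *S. indica* lipids it rose by 0.50 (SE 0.118, 0.241 to 0.763), 1.42-fold, with an adjusted *p* of 0.0404 (limma). The direct difference between the treatments was 0.21 in favour of ergosterol, with a 95% interval from −0.05 to 0.47 and an adjusted *p* of 0.957 (limma), so a difference was not detected and one of up to 0.47 lies within the interval. The call upon ergosterol was lost without solvent control 3 (limma adjusted *p* = 0.054), ergosterol 1 (0.056) or ergosterol 3 (0.056), with a change of 0.61 to 0.833 when any single library was left out. The call upon *S. indica* lipids was the weaker of the pair. It was lost without solvent control 1 (limma adjusted *p* = 0.155) or 3 (0.146), without ergosterol 1 (0.0656), 2 (0.0556) or 3 (0.0671), and without *S. indica* lipids 2 (0.101), 3 (0.0728) or 4 (0.101), although the change stayed between 0.40 and 0.623. It was also lost with no filter on low values (0.0763), with no variance trend (0.0706) and with only the 2 groups compared in the fit (0.0993). With the replicate number as a block in the fit, the change was 0.44 and the call was lost as well (limma adjusted *p* = 0.121).

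**Figure D1:**
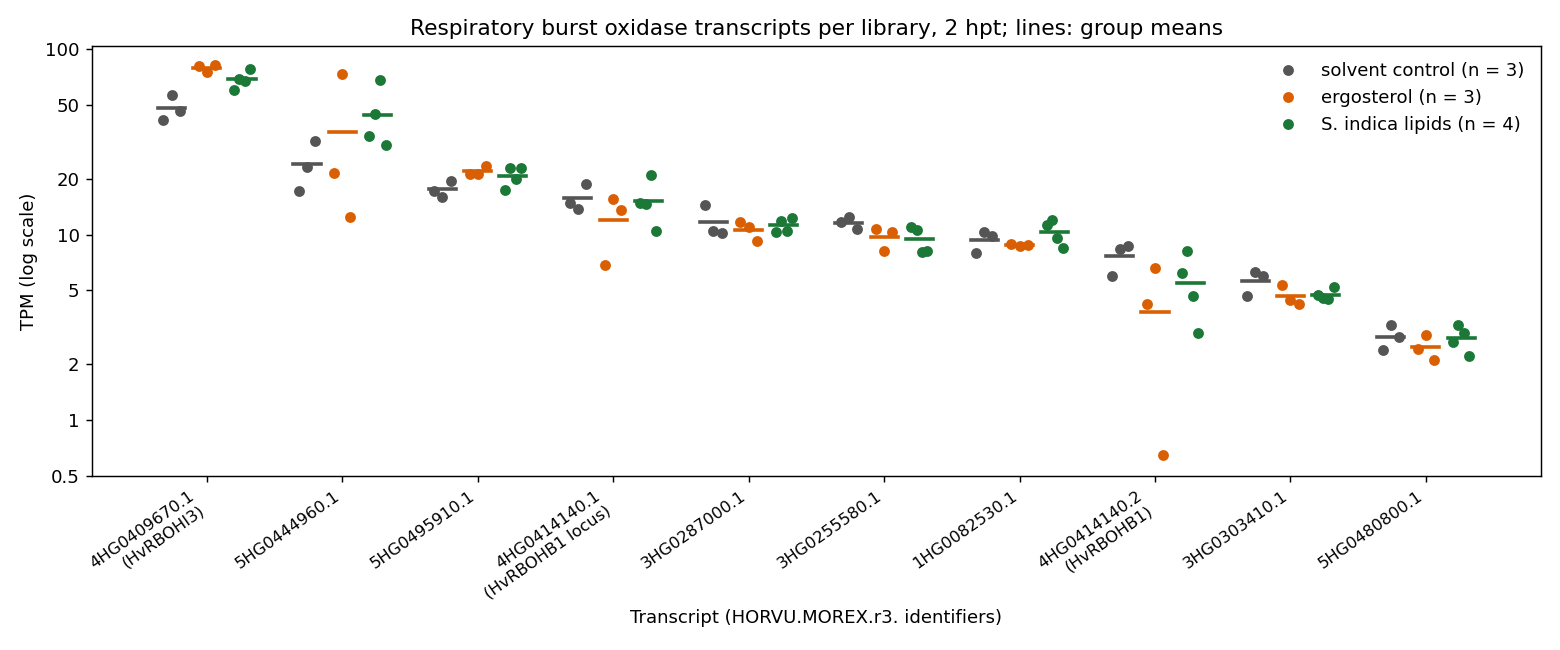
Level of each of the 10 respiratory burst oxidase transcripts in TPM (vertical log axis) in every library, with transcripts ordered along the horizontal axis by their solvent control mean. Points are libraries, colours are treatments and short lines are arithmetic group means. *Hv*RBOHI3 lies higher in all 7 treated libraries than in the 3 solvent control libraries, 5HG0444960.1 scatters widely, and 4HG0414140.2 has a single low library at 0.648 TPM.

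The 10 members spanned a wide range of levels, which are given as a description because the level chose them. In the solvent control, *Hv*RBOHI3 was followed by 5HG0444960.1 with 24.1 ± 7.50 TPM, 5HG0495910.1 with 17.6 ± 1.79 TPM, 4HG0414140.1 with 15.7 ± 2.70 TPM, 3HG0287000.1 with 11.7 ± 2.36 TPM, 3HG0255580.1 with 11.6 ± 0.865 TPM, 1HG0082530.1 with 9.34 ± 1.25 TPM, 4HG0414140.2 with 7.66 ± 1.48 TPM, 3HG0303410.1 with 5.64 ± 0.874 TPM and 5HG0480800.1 with 2.82 ± 0.446 TPM (SD, n = 3 each). Between neighbours in this order, the solvent control ranges were separate only for the first pair, for 3HG0255580.1 over 1HG0082530.1, and for the last pair. The order of 3HG0287000.1 and 3HG0255580.1 held in 6 of 10 libraries and that of 3HG0255580.1 and 1HG0082530.1 in 5 of 10. *Hv*RBOHI3 stood above 87.7% of all 18330 transcripts in level and 5HG0480800.1 above 17.7%.

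The closest member inside the limit of 1 TPM was 5HG0480800.1 with a mean of 2.70 TPM over the 10 libraries, and the closest transcript outside it was 1HG0073280.1 with 0.837 TPM. The other 5 transcripts below the limit were 1HG0073270.1 with a mean of 0.662 TPM, 1HG0073390.1 with 0.200 TPM, 1HG0072680.1 with 0.182 TPM, 6HG0576260.1 with 0.0477 TPM and 1HG0092240.1 with 0.0255 TPM. By their identifiers, 5 of these 6 weakly detected oxidases lie on chromosome 1H. 1HG0092240.1 was listed at 0 in 5 libraries, among them all 3 solvent controls, so no fold change is given for it. Summed, the 6 weak transcripts made up 1.63 ± 0.115 TPM in the solvent control, 2.01 ± 0.205 TPM upon ergosterol and 2.15 ± 0.313 TPM upon *S. indica* lipids, and they were not tested.

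The summed level of the 10 members was 154.4 ± 14.8 TPM in the solvent control libraries (137 to 165 TPM), 188.9 ± 33.1 TPM upon ergosterol (166 to 227 TPM) and 192.7 ± 19.9 TPM upon *S. indica* lipids (172 to 216 TPM). Each treated library lay above the highest solvent control library in this sum, the lowest of them by less than 1 SD of the controls. Without 5HG0444960.1, the sums were 130.3 ± 8.91, 153.1 ± 0.743 and 148.5 ± 7.76 TPM. Without *Hv*RBOHI3 as well, they were 82.1 ± 3.99, 74.1 ± 3.87 and 80.0 ± 6.35 TPM. The remaining sum was then just below the controls in all ergosterol libraries (71.4 to 78.5 against 78.9 to 86.5 TPM) and overlapped with them upon *S. indica* lipids. The higher sum in the treated libraries thus lay in the most abundant pair of transcripts, but not always in both. In ergosterol 1 and 3, 5HG0444960.1 was at 21.5 and 12.5 TPM, below its solvent control mean of 24.1 TPM, and the higher sum there lay in *Hv*RBOHI3. *Hv*RBOHI3 alone held 31.2% ± 3.68 of the members' summed TPM in the solvent control, 42.8% ± 8.61 upon ergosterol and 35.8% ± 5.18 upon *S. indica* lipids. No test was run on these sums, since the members were chosen with results of these data known.

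**Figure D2:**
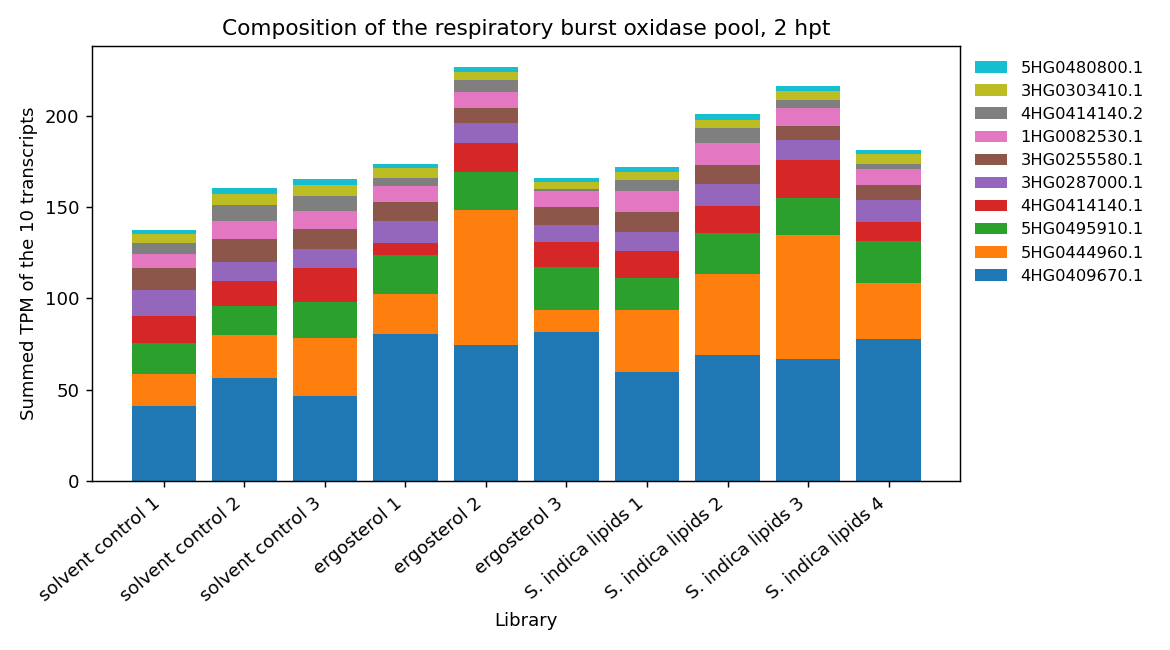
Summed TPM of the 10 transcripts in each library (vertical axis), stacked by transcript with the most abundant at the bottom. The *Hv*RBOHI3 segment reaches 74.8 to 81.5 TPM in the ergosterol libraries against 41.4 to 56.7 TPM in the solvent control, and the 5HG0444960.1 segment is largest in ergosterol 2 and *S. indica* lipids 3.

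Across the family, 1 of 10 members passed an adjusted *p* of 0.05 upon ergosterol, where 3.31% of all tested transcripts did, and 1 of 10 upon *S. indica* lipids, where 3.87% did. With 10 members, a single call in each comparison says little about the family as a group. None of the 10 reached a log2 fold change of 1 in size together with that adjusted *p* in either comparison, limits that 1.23% of all transcripts met upon ergosterol and 1.26% upon *S. indica* lipids. At an unadjusted *p* of 0.05 in limma, 3 members passed upon ergosterol (*Hv*RBOHI3, 5HG0495910.1 and 4HG0414140.2) and 1 upon *S. indica* lipids (*Hv*RBOHI3), against 19.7% and 15.3% of all transcripts. Between the treatments, none of the 10 passed the adjusted limit, where 0.00546% of all transcripts did (1 transcript), and none passed an unadjusted *p* of 0.05 in limma.

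The median change of the members was −0.13 upon ergosterol, with 3 of 10 above 0, beside −0.08 and 36.9% over all tested transcripts. For *S. indica* lipids it was −0.03, with 4 of 10 above 0, beside −0.04 and 41.2% over all tested transcripts. The libraries of ergosterol and solvent control did not overlap for 3 of 10 members (*Hv*RBOHI3 and 5HG0495910.1 higher, 3HG0255580.1 lower), and 26.1% of all transcripts were separated in the same way. For *S. indica* lipids this held for 1 of 10 members, *Hv*RBOHI3, against 13.2% of all transcripts. The 3 solvent control libraries serve both comparisons, so the fold changes are not independent of each other.

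**Figure D3:**
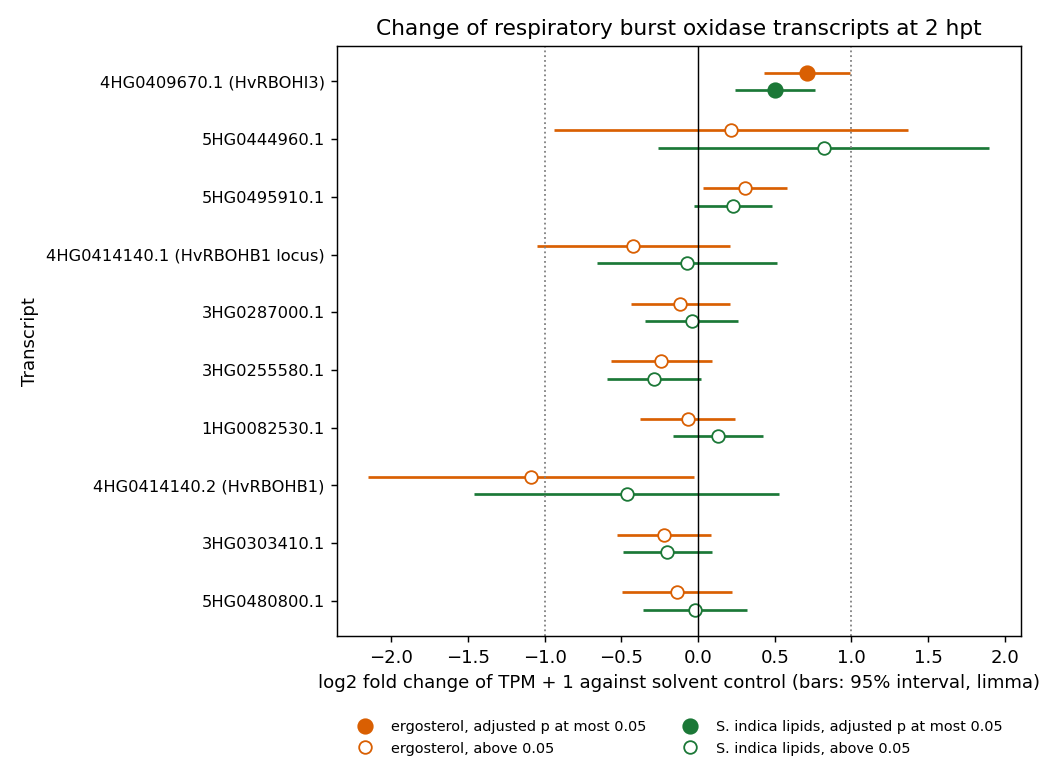
Change of each of the 10 transcripts against the solvent control as a log2 fold change of TPM + 1 (horizontal axis) with its 95% interval from limma, for ergosterol (orange) and *S. indica* lipids (green). Filled points have an adjusted *p* of at most 0.05 and dotted lines mark a change of 1 in either direction. *Hv*RBOHI3 carries the only filled points, at 0.71 and 0.50, and the widest intervals belong to 5HG0444960.1 and 4HG0414140.2.

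5HG0444960.1 was the second most abundant member and had the largest SD between replicates on the log2(TPM + 1) scale, while on the fold scale 4HG0414140.2 spread further (10.2-fold against 5.90-fold among the ergosterol libraries). Its level was 17.1, 23.1 and 32.0 TPM in the solvent control (24.1 ± 7.50), 21.5, 73.6 and 12.5 TPM upon ergosterol (35.9 ± 33.0) and 33.9, 44.3, 68.2 and 30.5 TPM upon *S. indica* lipids (44.2 ± 17.1). Ergosterol 2 was the highest of all 10 libraries and ergosterol 3 the lowest, 5.90-fold apart, and the solvent control lay inside the ergosterol range and overlapped with the *S. indica* lipid range. The SD within groups was 0.789 on the log2(TPM + 1) scale, larger than that of 97.7% of all tested transcripts and of 99.7% of the 2609 transcripts within 1.5-fold of its mean level.

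The transcript 5HG0444960.1 passed no test. Its difference upon ergosterol was 0.21 (SE 0.524, 95% interval −0.942 to 1.37, limma adjusted *p* = 0.866), which went to −0.48 without ergosterol 2 and to 0.75 without ergosterol 3. Upon *S. indica* lipids it was 0.82 (SE 0.490, −0.260 to 1.90, limma adjusted *p* = 0.468), the largest positive value among the members, with an interval that holds both no change and a rise of over 3-fold. A difference of the size seen for *Hv*RBOHI3 was not detectable for 5HG0444960.1 with these replicates.

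The locus 4HG0414140 was represented by 2 transcripts, of which the study names the second *Hv*RBOHB1. Transcript 4HG0414140.1 had 14.8, 13.6 and 18.8 TPM in the solvent control, 6.89, 15.6 and 13.5 TPM upon ergosterol, and 14.7, 14.6, 21.1 and 10.4 TPM upon *S. indica* lipids. Transcript 4HG0414140.2 had 5.96, 8.32 and 8.69 TPM in the solvent control, 4.24, 6.59 and 0.648 TPM upon ergosterol, and 6.22, 8.18, 4.67 and 2.97 TPM upon *S. indica* lipids. For both transcripts the treated libraries reached below the lowest solvent control library, through ergosterol 1 and 3 and *S. indica* lipids 4 for the first (ergosterol 3 by a small margin) and through ergosterol 1 and 3 and *S. indica* lipids 3 and 4 for the second, and for both the groups overlapped.

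The lowest fold change of any member was that of 4HG0414140.2 upon ergosterol, −1.09 (SE 0.481, 95% interval −2.15 to −0.03), with an unadjusted *p* of 0.0456 and an adjusted *p* of 0.245 (limma), so it did not pass. This value rested on the library ergosterol 3 and was −0.44 without it (limma adjusted *p* = 0.563). With libraries weighted by their estimated quality it was −1.60 and passed, with a limma adjusted *p* of 0.0494, and the adjusted *p* ranged from 0.0494 to 0.563 over 20 alternatives. Upon *S. indica* lipids the value of 4HG0414140.2 was −0.46 (limma adjusted *p* = 0.685). For 4HG0414140.1 the values were −0.42 upon ergosterol (limma adjusted *p* = 0.449), which was −0.10 without ergosterol 1, and −0.07 upon *S. indica* lipids (limma adjusted *p* = 0.933).

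Transcript 4HG0414140.2 held 28.8% to 37.9% of the TPM of its locus in the solvent control (32.8% ± 4.66), 38.1%, 29.7% and 4.57% in ergosterol 1, 2 and 3 (24.1% ± 17.4), and 18.2% to 35.9% upon *S. indica* lipids (26.5% ± 7.89). Ergosterol 3 thus stood apart in the share of the second transcript and ergosterol 1 in the level of the first. The split of reads between overlapping transcripts of a locus is estimated by the quantification software. The sum over the locus was 23.4 ± 3.59 TPM in the solvent control, 15.8 ± 5.69 TPM upon ergosterol and 20.7 ± 5.26 TPM upon *S. indica* lipids. The locus differed by −0.58 upon ergosterol (SE 0.258, limma adjusted *p* = 0.234) and by −0.19 upon *S. indica* lipids (limma adjusted *p* = 0.750), and neither passed.

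**Figure D4:**
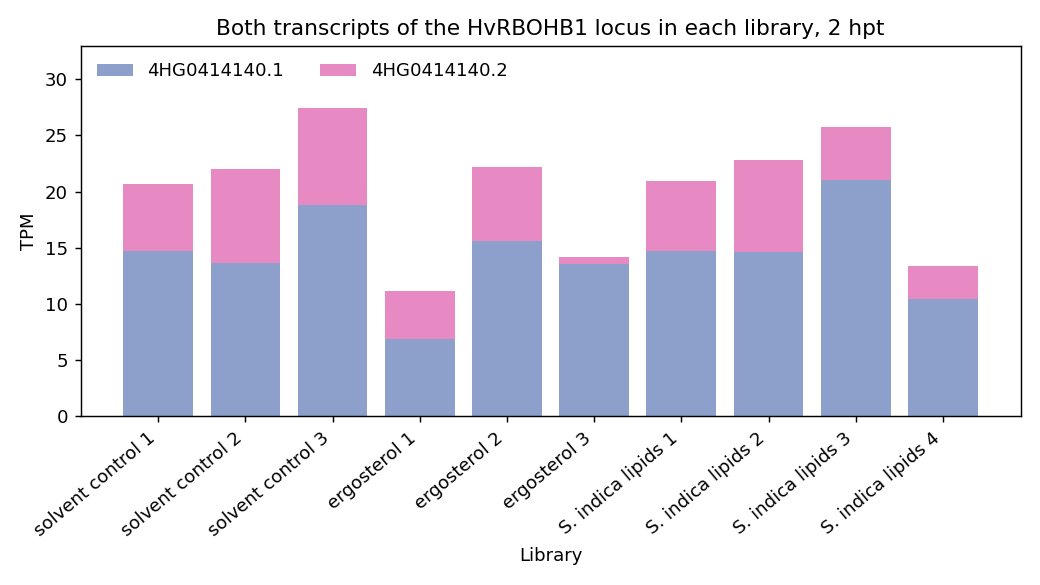
TPM of both transcripts of the locus 4HG0414140 (vertical axis, stacked) in each of the 10 libraries. The second transcript, on top, nearly vanishes in ergosterol 3 (0.648 TPM) while the first is at 13.5 TPM there, and the whole bar is lowest in ergosterol 1.

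5HG0495910.1, at the third place in level, had 17.2, 16.0 and 19.5 TPM in the solvent control, 21.2, 21.1 and 23.4 TPM upon ergosterol, and 17.5, 22.9, 20.0 and 22.9 TPM upon *S. indica* lipids. All 3 ergosterol libraries lay above all 3 controls, and the *S. indica* lipid libraries overlapped with the controls. The difference was 0.31 upon ergosterol (SE 0.123, 95% interval 0.035 to 0.577) with an unadjusted *p* of 0.0304 in limma but an adjusted *p* of 0.206, and 0.23 upon *S. indica* lipids (limma adjusted *p* = 0.384).

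3HG0255580.1 was the member that lay lower in all ergosterol libraries, with 11.7, 12.5 and 10.7 TPM in the solvent control and 10.7, 8.21 and 10.3 TPM upon ergosterol, where the highest treated and the lowest control library were nearly equal. In the *S. indica* lipid libraries it had 11.0, 10.6, 8.01 and 8.12 TPM. Its differences of −0.24 and −0.29 did not pass (limma adjusted *p* = 0.403 and 0.364). The members 3HG0287000.1, 1HG0082530.1, 3HG0303410.1 and 5HG0480800.1 differed by −0.22 to −0.07 upon ergosterol and by −0.20 to 0.13 for the lipid extract, none of which passed.

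These 4, 3HG0255580.1 and 5HG0495910.1 were 6 members with an SD within groups of 0.142 to 0.181 on the log2(TPM + 1) scale. A smaller SD was found for 25.7% to 45.4% of all tested transcripts. For these 6 members, the standard errors of the ergosterol comparison were 0.123 to 0.163 and those of the lipid comparison 0.115 to 0.153. Their 95% intervals together ran from −0.568 to 0.577 and from −0.593 to 0.480. A change of 2-fold or more in either direction lay outside the interval of each of these 6 members in both comparisons. No change lay inside each of these intervals except that of 5HG0495910.1 upon ergosterol. How similar the members are in sequence was not examined, so any split of reads between near-identical copies is unknown.

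Over the 10 libraries, the members did not move as a block. Of the 45 pairs of members, 22 had a Pearson *r* of log2(TPM + 1) above 0, with a median of −0.01. The highest *r* were 0.781 for 4HG0414140.2 with 5HG0480800.1 and 0.737 for *Hv*RBOHI3 with 5HG0495910.1, and the lowest was −0.641 for 5HG0444960.1 with 3HG0255580.1. After the treatment means were removed, *Hv*RBOHI3 and 5HG0495910.1 were at 0.298 and the other pairs named at 0.757 and −0.580. These values describe 10 libraries that share 3 treatments.

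The transcripts whose pattern was most like that of *Hv*RBOHI3, by Pearson *r* over the 10 libraries, were 6HG0606350.1 (0.981), described as a major facilitator superfamily transporter, 4HG0399620.1 (0.977), a sugar transporter, 1HG0092660.1 (0.973) and 2HG0138730.1 (0.971), both receptor-like protein kinases, and 7HG0649020.1 (0.972), a carbonic anhydrase. All 5 passed the adjusted limit in both comparisons and changed more than the oxidase itself, but they were picked for likeness to a transcript that separates treated from control libraries, so these calls largely follow from the choice. The receptor-like kinase 2HG0138730.1 had 62.6 TPM in the solvent control, 127 TPM upon ergosterol and 115 TPM upon *S. indica* lipids, a log2 fold change of 1.03 and 0.89 (limma adjusted *p* = 0.0036 and 0.00469). The transporter 6HG0606350.1 went from 1.28 to 9.12 and 6.63 TPM, a log2 fold change of 2.18 and 1.72 (limma adjusted *p* = 0.0018 and 0.004). Within the treatments, the *r* with *Hv*RBOHI3 was 0.839 to 0.923 for the 5, which also follows in part from the choice.

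For the locus 4HG0414140, the transcript most like 4HG0414140.1 was 5HG0509800.1, a histone H2A, with an *r* of 0.982, and the transcript most like 4HG0414140.2 was 6HG0541500.1, described as a mitochondrial transcription termination factor-like protein, with 0.955. None of the 5 transcripts listed for either passed the adjusted limit in either comparison. After the treatment means were removed, the *r* of 5HG0509800.1 and 6HG0541500.1 with their members was 0.982 and 0.952, as high as or close to the values before. Both were picked for the highest *r* among all tested transcripts, so these values largely follow from the choice. The *r* does not reflect the size of a change, as 5HG0509800.1 ranged only from 435 to 505 TPM while 4HG0414140.1 ranged from 6.89 to 21.1 TPM.

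The genes that act around the oxidases were taken by description words and counted in the same fits. Among regulators, 36 of 52 transcripts for calcium-dependent protein kinases, calcineurin B-like calcium sensors and their kinases reached 1 TPM, of which 2 rose and 1 fell upon ergosterol, and 2 rose and 2 fell upon *S. indica* lipids, beside 3.31% and 3.87% of all tested transcripts in either direction. The kinase transcripts that rose were 5HG0523860.1, with 16.8 ± 1.44 TPM in the solvent control, 28.3 ± 4.56 TPM upon ergosterol and 26.7 ± 1.08 TPM upon *S. indica* lipids (log2 fold change 0.71 and 0.64, limma adjusted *p* = 0.00945 for both), and 5HG0517140.1, by 0.57 and 0.47 (limma adjusted *p* = 0.0212 and 0.0356). The calcium sensor 5HG0491290.1 fell by 0.53 and by 0.38, with 67.1 ± 1.29 TPM in the solvent control and 46.3 ± 2.00 and 51.6 ± 4.95 TPM in the treated groups (limma adjusted *p* = 0.0117 and 0.0378). A second sensor of this type, 1HG0065890.1, fell upon *S. indica* lipids by 1.16, from 4.04 ± 0.880 to 1.32 ± 0.688 TPM (limma adjusted *p* = 0.0221), and differed by −0.49 upon ergosterol (limma adjusted *p* = 0.324). 5HG0517140.1 and 1HG0065890.1 are named here after their values were seen. The list median was −0.03 upon ergosterol and −0.06 upon *S. indica* lipids, near that of all tested transcripts.

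None of 11 tested transcripts for Rac/ROP GTPases and their exchange factors, which regulate RBOHs in rice, and none of 19 for phospholipase D and diacylglycerol kinase, which make the phosphatidic acid that binds RBOHs in *A. thaliana*, passed the adjusted limit in either comparison. Their median changes were −0.08 and 0.06 upon ergosterol and −0.07 and −0.02 upon *S. indica* lipids. Of all tested transcripts, 3.31% passed upon ergosterol and 3.87% upon *S. indica* lipids, so the lack of calls in lists this short says little. On the side of substrate, 9 transcripts for enzymes that regenerate NADPH were tested. None passed upon ergosterol, and 2 rose upon *S. indica* lipids, both of the 6-phosphogluconate dehydrogenase locus 7HG0639100, of the oxidative pentose phosphate pathway, where 3.87% of all tested transcripts passed. 7HG0639100.1 went from 370.6 ± 24.7 to 471.0 ± 23.7 TPM (log2 fold change 0.35, limma adjusted *p* = 0.0374) and 7HG0639100.5 from 37.1 ± 5.92 to 52.9 ± 0.730 TPM (0.51, limma adjusted *p* = 0.0168), and both are named after their values were seen. Upon ergosterol these were at 443.4 ± 21.9 and 49.0 ± 1.04 TPM, above all controls, with a limma adjusted *p* of 0.138 and 0.077.

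Downstream of the oxidases, none of 12 superoxide dismutase transcripts, which convert superoxide to hydrogen peroxide, and none of 2 catalase transcripts, which remove it, passed in either comparison. Of 10 transcripts of the ascorbate peroxidase cycle, 1 rose in both, the monodehydroascorbate reductase 7HG0688870.1, which regenerates ascorbate, which had 270.7 ± 30.2 TPM in the solvent control, 382.2 ± 27.5 TPM upon ergosterol and 421.5 ± 38.0 TPM upon *S. indica* lipids (log2 fold change 0.50 and 0.64, limma adjusted *p* = 0.0354 and 0.00551). None of 9 transcripts for other oxidases that produce hydrogen peroxide (amine, polyamine and oxalate oxidases) and not the 1 tested ferric reductase, a relative of the oxidases by its transmembrane domain, passed. Most transcripts of all these lists did not pass the test in either comparison. Of all tested transcripts, 3.31% passed upon ergosterol and 3.87% upon *S. indica* lipids. Few or no calls in lists this short therefore say little about these pathways.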

How the data were processed

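Polyadenylated RNA of 10 barley root libraries was sequenced by RNA-Seq at 2 hpt. Per the labels and the methods of the study, trimming (Trimmomatic 0.39) and pseudoalignment to MorexV3 cDNA (kallisto 0.46.1) were done by the authors. The deposited table holds TPM per library, which were used, and the authors' mean TPM, log2 fold changes and sleuth q-values per comparison, which were not used. The table had 43382 lines, of which 5420 repeat a transcript with the same TPM and were dropped, after which each library summed to 1000000. Read depth is not given by TPM, so no counting interval is stated.

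TPM were taken to log2 after adding a pseudocount of 1 and fitted with limma 3.58.1 (R 4.3.3; moderated variances with a trend; all 10 libraries in 1 fit; a mean of at least 1 TPM), with Benjamini-Hochberg adjustment over 18330 transcripts. The step was tested on simulated data with independent noise for each transcript and library. Such data do not cover deviations that the transcripts of a library share. Calls used an adjusted *p* of 0.05, alone or with a log2 fold change of 1 in size. Intervals are 95% intervals. Named in full were the loci 4HG0409670 and 4HG0414140, members at the adjusted limit, the 3 most abundant members, the 5 most like transcripts, and at most 2 transcripts per pathway list by their *p* upon ergosterol; others are said to be named after their values were seen. The members and lists were chosen with earlier results of these data known. Alternatives (21) covered the pseudocount, filter, scaling, model, locus sums and each library left out.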

Additional observations from a re-analysis of the deposited data

How the results depend on the processing

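Over 21 alternatives, 602 of 618 values for the members kept their side of the threshold, 26 of them with a sign that differed while neither value passed, 15 lost the adjusted limit of 0.05, all of *Hv*RBOHI3, 1 passed it (4HG0414140.2 upon ergosterol with library weights), and none reversed past it. The call of *Hv*RBOHI3 at the adjusted limit held in 18 of 21 alternatives upon ergosterol but only in 9 of 21 upon *S. indica* lipids. The count of members at both limits upon ergosterol was 1 with library weights instead of 0. The count at the adjusted limit alone upon ergosterol was 2 with library weights and 0 to 1 when each library was left out. Upon *S. indica* lipids it was 0 to 1 when each library was left out, and 0 with no filter on low values, with only the 2 groups compared in the fit, with no trend, and with the replicate block, where *Hv*RBOHI3 was at 0.44 (limma adjusted *p* = 0.121). The causes were not tested. The labels do not say whether equal replicate numbers share plants or a day. The correlations of the deviations from the group means of such libraries ran from −0.188 to 0.196. With so few libraries this cannot settle whether they were paired, and the block was kept as an alternative. Over all transcripts, the count at the adjusted limit moved from 606 to 2761 upon ergosterol with library weights (from 225 to 423 at both limits), and to 275, 304 and 294 without ergosterol 1, ergosterol 3 and solvent control 3. Upon *S. indica* lipids it moved from 710 to 1146 with library weights, to 429 with the replicate block, and to 444 and 419 without solvent control 1 and 3. With 3 or 4 replicates, changes below 2-fold in the variable members 5HG0444960.1 and 4HG0414140.2 were not detectable, and larger ones could be missed too. The change of 4HG0414140.2 upon ergosterol was −1.09 (SE 0.481) and did not pass in the main fit (limma adjusted *p* = 0.245). TPM carry no depth from which counting error could be given.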

Other observations

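5HG0444960.1, the member with the largest SD between replicates on the log2(TPM + 1) scale, was followed over the 10 libraries by transcripts that were looked up after its values were seen. The 5 with the highest Pearson *r* were 1HG0062680.1, described as the gibberellin receptor GID1a (0.937), the universal stress proteins 4HG0382720.1 (0.928) and 2HG0113390.1 (0.907), a CDGSH iron-sulfur domain protein, 5HG0496040.1 (0.914), and an ethylene-responsive transcription factor, 2HG0112960.1 (0.912). None of the 5 passed the adjusted limit against the solvent control. A high *r* does not mean a change of like size. 5HG0444960.1 ranged from 12.5 to 73.6 TPM, but 1HG0062680.1 only from 217 to 269 TPM and 5HG0496040.1 from 20.5 to 26.7 TPM. The ethylene-responsive factor was highest in ergosterol 2, at 25.2 TPM, the library in which 5HG0444960.1 was also highest. The universal stress protein 4HG0382720.1 had 135, 152 and 187 TPM in the solvent control, 164, 343 and 146 TPM upon ergosterol and 222, 358, 403 and 228 TPM upon *S. indica* lipids, so ergosterol 2 stood above its replicates there too.

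Words for genes of fermentation and low oxygen were then searched, and separately the words universal stress protein. The universal stress proteins 4HG0382720.1 and 2HG0113390.1 were already among the most like transcripts listed above. Their high *r* was therefore known before that search and adds nothing to it. The pyruvate decarboxylase 4HG0384560.1, which opens ethanol fermentation, had 101, 114 and 119 TPM in the solvent control, 169, 209 and 113 TPM upon ergosterol and 149, 194, 230 and 182 TPM upon *S. indica* lipids, with an *r* of 0.823 with 5HG0444960.1 and 0.888 after the treatment means were removed. The alcohol dehydrogenase 4HG0345740.1, the step after it, had an *r* of 0.721 (0.877 within treatments). It rose upon *S. indica* lipids by 1.02 on the log2 scale (limma adjusted *p* = 0.00759) and differed by 0.76 upon ergosterol (0.0535). The alcohol dehydrogenase 1HG0082960.1 had an *r* of 0.755 and differed by 1.34 (limma adjusted *p* = 0.0347) and 0.96 (0.149). For 4HG0390590.1 the *r* was 0.74, with 0.71 (limma adjusted *p* = 0.0631) and 0.43 (0.254). The lists as a whole were mixed. An *r* of at least 0.7 was found for 1 of 2 pyruvate decarboxylases, 3 of 28 alcohol dehydrogenases, 3 of 13 universal stress proteins and not for the single non-symbiotic hemoglobin (0.653). Among the universal stress proteins counted, 4HG0382720.1 and 4HG0382720.2 are transcripts of the same locus. The share of all tested transcripts at this *r* was not determined, so the counts cannot be called high or low. The *r* ran from −0.839 to 0.755 among the alcohol dehydrogenases, with a median of −0.02. It ran from −0.281 to 0.823 for the pyruvate decarboxylases and from −0.577 to 0.928 for the universal stress proteins. These are descriptions over 10 libraries of transcripts picked for their likeness, and their part in the spread of 5HG0444960.1 was not tested.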
